A study of Mus musculus with 6 samples.

Results

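The replication-dependent histone genes of the mouse were taken as the protein-coding genes of GENCODE (GRCm39) named H1f1 to H1f6 or with symbols beginning H2ac, H2bc, H3c or H4c. This rule used symbols and positions only and gave 68 of 21757 protein-coding genes, made up of 6 H1, 18 H2A, 19 H2B, 12 H3 and 13 H4 genes. White cells of peripheral blood were profiled by ATAC-seq, an assay that tags open DNA with the Tn5 transposase, after lysis of red cells. The groups were 3 control libraries and 3 from high-altitude de-acclimatization (HADA), and the sources used here do not say whether each library came from a single mouse. Per the study's methods the mice were C57BL/6j males. HADA mice had lived in a hypobaric hypoxia chamber and were then returned to normal oxygen, while control mice stayed in normal oxygen. The labels and the study's methods call the cells leukocytes, but elsewhere the study describes mononuclear cells, a fraction that would hold few neutrophils. No sort is described, so the libraries hold a mixture of blood cell types, and fewer cells of a type cannot be told apart from less open chromatin per cell. The lists held 34045 to 45799 peaks per library. The background pileup over the genome, a stand-in for depth, ran from 1.69 to 2.34 and overlapped between groups.

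These genes encode the core histones H2A, H2B, H3 and H4, which form the nucleosome, and the linker histone H1, which binds DNA between nucleosomes. They lie in dense clusters and are transcribed mainly in S phase, when new chromatin is assembled behind the replication fork. Their transcripts lack introns and a poly(A) tail as a rule, and end in a conserved stem-loop that is bound by the protein Slbp. Most white cells in blood do not divide. RNA was not measured in these libraries.

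The members fell into 6 groups of neighbours on 4 chromosomes when starts less than 200 kb apart were joined. Chromosome 13 held 54 of the genes in 3 groups, which ran in GRCm39 from H2bc13 to H2bc24 (chr13:21899933-22021700, 18 genes), from H2ac12 to H2bc11 (chr13:22219334-22227846, 5 genes) and from H4c8 to H2ac1 (chr13:23715220-24118834, 31 genes). Chromosome 3 held 10 genes (chr3:96127181-96177448), chromosome 11 held 3 (chr11:58838848-58847656), and H4c16 stood alone on chromosome 6 (chr6:136778551-136781413). Peaks covered 10.4% to 12.8% of the first chromosome 13 group, 22.6% to 26.8% of the second and 5.60% to 7.28% of the third. They covered 16.6% to 19.5% of the chromosome 3 cluster.

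Promoter sequences of 6 contrasting loci are shown to let the elements counted over the families be read in place. Each run is read 5′ to 3′ on the strand of the named gene and covers the 250 bases before its annotated start, except that the H2ac8 to H2bc8 run is the 175 bases between the divergent starts of both genes, read on the strand of H2bc8. Capitals mark the TATA, CCAAT, octamer, H1 and GC elements on either strand, whose letters are given with their counts. The sequences lie in GRCm39 at chr13:23940746-23940995 (H4c2, plus strand), chr13:22225533-22225782 (H4c9, minus strand), chr11:58839496-58839745 (H2bc27, plus strand), chr13:23755395-23755569 (H2ac8 to H2bc8), chr3:96147593-96147842 (H2ac19, minus strand) and chr13:23922541-23922790 (H1f2, plus strand). H4c2, H4c9 and H2bc27 were among the regions that rose in HADA, and H2ac19 was the tallest histone region of the control libraries.
H4c2: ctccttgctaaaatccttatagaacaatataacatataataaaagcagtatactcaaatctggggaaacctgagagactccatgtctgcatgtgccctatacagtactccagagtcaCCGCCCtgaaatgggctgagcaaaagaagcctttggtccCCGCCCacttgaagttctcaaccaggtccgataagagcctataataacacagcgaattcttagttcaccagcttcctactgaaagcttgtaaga
H4c9: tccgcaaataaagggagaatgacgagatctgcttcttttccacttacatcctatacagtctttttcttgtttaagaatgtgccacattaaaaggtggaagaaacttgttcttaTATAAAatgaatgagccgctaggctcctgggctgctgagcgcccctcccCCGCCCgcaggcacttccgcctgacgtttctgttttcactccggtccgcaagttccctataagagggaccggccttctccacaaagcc
H2bc27: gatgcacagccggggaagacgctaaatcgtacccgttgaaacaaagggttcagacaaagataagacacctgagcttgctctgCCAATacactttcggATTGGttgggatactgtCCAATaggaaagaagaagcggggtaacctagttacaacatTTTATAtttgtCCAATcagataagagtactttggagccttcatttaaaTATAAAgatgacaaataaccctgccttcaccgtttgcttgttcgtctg
H2ac8 to H2bc8: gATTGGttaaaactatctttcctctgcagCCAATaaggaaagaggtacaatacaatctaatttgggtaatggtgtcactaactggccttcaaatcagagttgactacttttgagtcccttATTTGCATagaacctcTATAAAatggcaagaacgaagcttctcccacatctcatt
H2ac19: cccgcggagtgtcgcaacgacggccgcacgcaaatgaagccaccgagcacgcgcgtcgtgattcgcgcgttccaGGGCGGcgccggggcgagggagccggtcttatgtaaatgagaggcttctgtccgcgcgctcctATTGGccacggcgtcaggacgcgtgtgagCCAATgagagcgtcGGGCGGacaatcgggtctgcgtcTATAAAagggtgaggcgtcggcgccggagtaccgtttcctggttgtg
H1f2: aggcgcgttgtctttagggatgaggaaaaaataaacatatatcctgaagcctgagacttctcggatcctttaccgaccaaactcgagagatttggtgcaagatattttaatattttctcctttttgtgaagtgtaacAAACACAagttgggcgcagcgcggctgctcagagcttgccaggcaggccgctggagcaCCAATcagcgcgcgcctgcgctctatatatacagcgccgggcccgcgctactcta

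Over all 68 members, the CCAAT element was found in 54 of the 250-base promoters (79.4%, against 36.5% of all protein-coding promoters). The TATA box, TATAAA, was found in 33 (48.5% against 11.9%). The octamer ATGCAAAT, a known binding site of the Oct factors in H2B promoters, was found in 15 (22.1% against 1.49%), of which 7 were H2A and 8 were H2B genes. The E2F-like sequence TTTNNCGC was present in 16 (23.5% against 5.14%). Among H4 promoters CCAAT was in 4 of 13, and it was in 36 of the 37 H2A and H2B promoters, 9 of 12 H3 and 5 of 6 H1 promoters. The GC box CCGCCC was in 20 of all members (29.4% against 36.3%), which were 10 of 13 H4, 4 of 6 H1, 3 of 18 H2A, 1 of 19 H2B and 2 of 12 H3 promoters. Differences between families were not tested. The H1 box AAACACA was in 4 of 6 H1 promoters and in 8 of all members (11.8% against 5.87%). Motifs were searched on both strands, the 6 motifs share no sequence in full, and a match describes letters and not binding. The windows of divergent neighbours can overlap, so a single site can count for both genes. The octamer and the TATA box between H2ac8 and H2bc8 were each counted for both. The counts are therefore of genes and not of separate sites.

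The 3′ stem-loop was searched for in the 200 bases after the stop codon. It was present in 63 of 68 members and in 68 of 21757 protein-coding genes in all, so 5 genes outside the set carried it. The members without it were H2bc21, H2ac22, H2bc22, H2bc23 and H2bc24. The most common form was shared by 39 members of the H1, H2A, H2B and H3 families, and the next by 9 members. All 13 H4 genes had a different stem, of which the most common form was found in 8 H4 genes. The capitals span the stem and the loop.
Form of 39 members: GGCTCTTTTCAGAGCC
Form of 9 members: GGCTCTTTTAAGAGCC
H4 form of 8 members: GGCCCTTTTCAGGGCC

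Most of these promoters were open in every library. A peak summit lay within 1 kb of an annotated start in all 6 libraries for 51 of 68 histone genes (75%), against 11024 of 21757 protein-coding genes (50.7%). The histone count was 51, 54 and 53 in control libraries, against 52, 54 and 52 with HADA, so the groups overlapped. By family it was 13 of 13 for H4, 16 of 18 for H2A, 16 of 19 for H2B, 6 of 12 for H3 and 0 of 6 for H1. Because divergent and neighbouring genes share peaks, the 68 genes gave 41 accessible regions, 38 of them present in all 6 libraries out of 23970 such regions in the genome. Peaks at members numbered 37, 39 and 39 in control libraries, against 38, 40 and 38 with HADA.

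The genes outside the 51 were accounted for as follows. H3c8 had a summit in 5 libraries, missing in control 1. H3c10, H3c4, H1f2, H3c1 and H1f1 each had a summit within 1 kb in 1 library, which for H3c4 and H1f1 was HADA 2, for H3c10 and H3c1 control 2, and for H1f2 control 3. The remaining 11 had none: H1f3, H1f4, H1f5, H1f6, H2ac1, H2bc1, H2ac10, H2bc9, H2bc21, H3c14 and H3c15. Of these 11, the starts of 5 (H1f4, H2bc9, H2bc21, H3c14 and H3c15) were nevertheless inside a peak in all 6 libraries, with the summit slightly beyond 1 kb. The start of H1f5 was inside a peak in the 3 HADA libraries and in 0 of the control libraries.

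Summit position differed by family in the plot of summit positions. The H4 genes had their summit at a median of 91 bp downstream of the start (from −35 to 372 bp, 13 genes), upstream of the start in 1 gene. The 16 H2B genes had it at a median of 121.5 bp upstream (from −356 to 73 bp), and 12 of them had it upstream. The 16 H2A genes lay at a median of −14.75 bp (from −324 to 989.5 bp). These positions are a description, since genes that share a region share its summit, and the coding bodies are repetitive: a median of 41.0% of 50-base words in the first 400 bases of a gene were found once in the genome, against 93.2% in the 500 bases upstream.

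**Figure D1:**
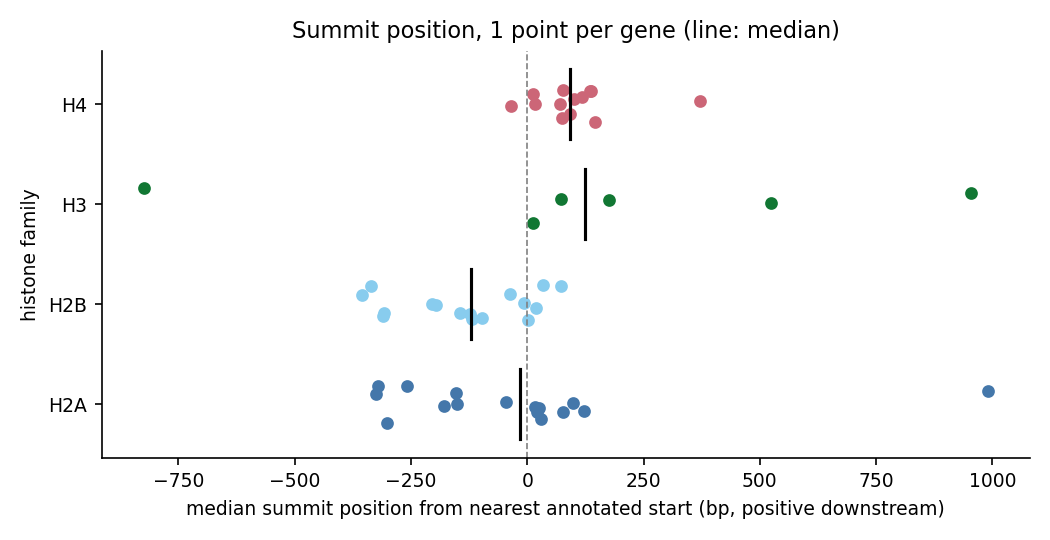
Median summit position over libraries relative to the nearest annotated start (horizontal axis, bp, positive downstream) for each of the 51 histone genes with a peak in all 6 libraries, by family (vertical axis). Each point is a gene and the black line is the family median. H2B points lie mostly upstream of the start (12 of 16) and H4 points mostly downstream (12 of 13).

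Peak height was expressed as the summit pileup divided by the background pileup of the same library. The histone regions were tall, with a median at percentile 81.2 of all shared regions, against 70.8 for regions at protein-coding starts. Their fold enrichment, which divides the summit by the local background, had a median at percentile 31.1, against 65.0. The local background estimate around histone peaks was accordingly high. Its median over histone regions was 10.96, 7.74 and 7.27 times the library background in control libraries, and over regions at protein-coding starts it was 5.22, 3.77 and 3.95 times. Neighbouring regions share part of that background window, so their local backgrounds are not independent values.

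HADA was compared with control to ask whether these clusters differed in accessibility. For the test, log2 summit pileups were centred on the median shared region of each library and fitted with limma over all 23970 shared regions. At an adjusted p under 0.05, 16 of 38 histone regions were higher in HADA and 0 were lower. The background was 17.9% of all shared regions higher and 24.1% lower. Among the 10849 shared regions at protein-coding starts it was 19.6% higher and 6.94% lower. At an unadjusted p under 0.05, 22 histone regions differed, each of them higher, beside 23.5% of all shared regions and 27.3% of those at protein-coding starts that were higher at that limit. With the limma trend the adjusted count was 22 higher and 0 lower, beside 18.4% of all shared regions and 21.7% of starts higher. The median log2 difference was 0.46 over histone regions, 0.12 over regions at protein-coding starts and −0.04 over all shared regions, and 36 of 38 histone regions had a positive difference. The 16 called regions held 10 of the 13 regions with an H4 gene.

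Summit heights did not overlap between groups, after centring, at 31 histone regions, where every HADA library exceeded every control library, and at 0 regions in the opposite direction. This separation was present at 29.4% of all shared regions and 37% of regions at protein-coding starts in the higher direction, and at 31.2% and 15% in the lower direction. The count of 16 depended on single libraries: it was 1 without HADA 1, 1 without HADA 2, 2 without HADA 3 and 9 without control 3. The same fits called 7.58%, 2.99%, 6.86% and 17.6% of all shared regions higher, so by the adjusted count the histone share without HADA 1, 2 or 3 (2.63%, 2.63% and 5.26%) was not above the background. In those 3 fits the median log2 difference was 0.48, 0.45 and 0.47. At an unadjusted p under 0.05, 15, 13 and 15 of the 38 regions were higher in them, beside 18.1%, 16.2% and 17.2% of all shared regions. The remaining HADA libraries all exceeded the control libraries at 31, 31 and 32 histone regions, beside 31.7%, 31.1% and 32.4% of all shared regions, and the reverse held at 0. The adjusted count was 3 when libraries were centred on regions at protein-coding starts, a share of 7.89% beside 9.79% of all shared regions. In that fit 33 of 38 differences were positive, and 11 regions were higher at an unadjusted p under 0.05, beside 15.5% of all shared regions. Every HADA library exceeded every control library at 24 histone regions, beside 20.9% of all shared regions. At 2 histone regions every HADA library was below every control library. In each of these fits 0 histone regions were lower at an adjusted p under 0.05. H4c12 kept its call whichever library was left out, and of the other 15 calls only that of H4c2 was kept without HADA 3 and none without HADA 1 or HADA 2. Without control 3, 7 calls were lost (H2ac15/H2bc15, H2ac22/H2bc22, H4c18, H4c9, H4c3, H3c2 and H4c1/H3c1), and the log2 difference fell by more than 1.5 times to 0.42 at H2ac15/H2bc15, 0.39 at H3c2 and 0.40 at H4c1/H3c1, and, with the call kept, to 0.56 at H2bc27 and 0.50 at H4c4. Without control 1 the call of H2ac22/H2bc22 was lost and 4 regions passed that had not, H2ac8/H2bc8, H2bc6, H2bc7/H2ac7 and H2bc13/H2ac13/H3c10. By the rank of the fold within each library, the differences of H2ac15/H2bc15, H2ac22/H2bc22, H4c1/H3c1 and H4c6 turned negative.

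**Figure D2:**
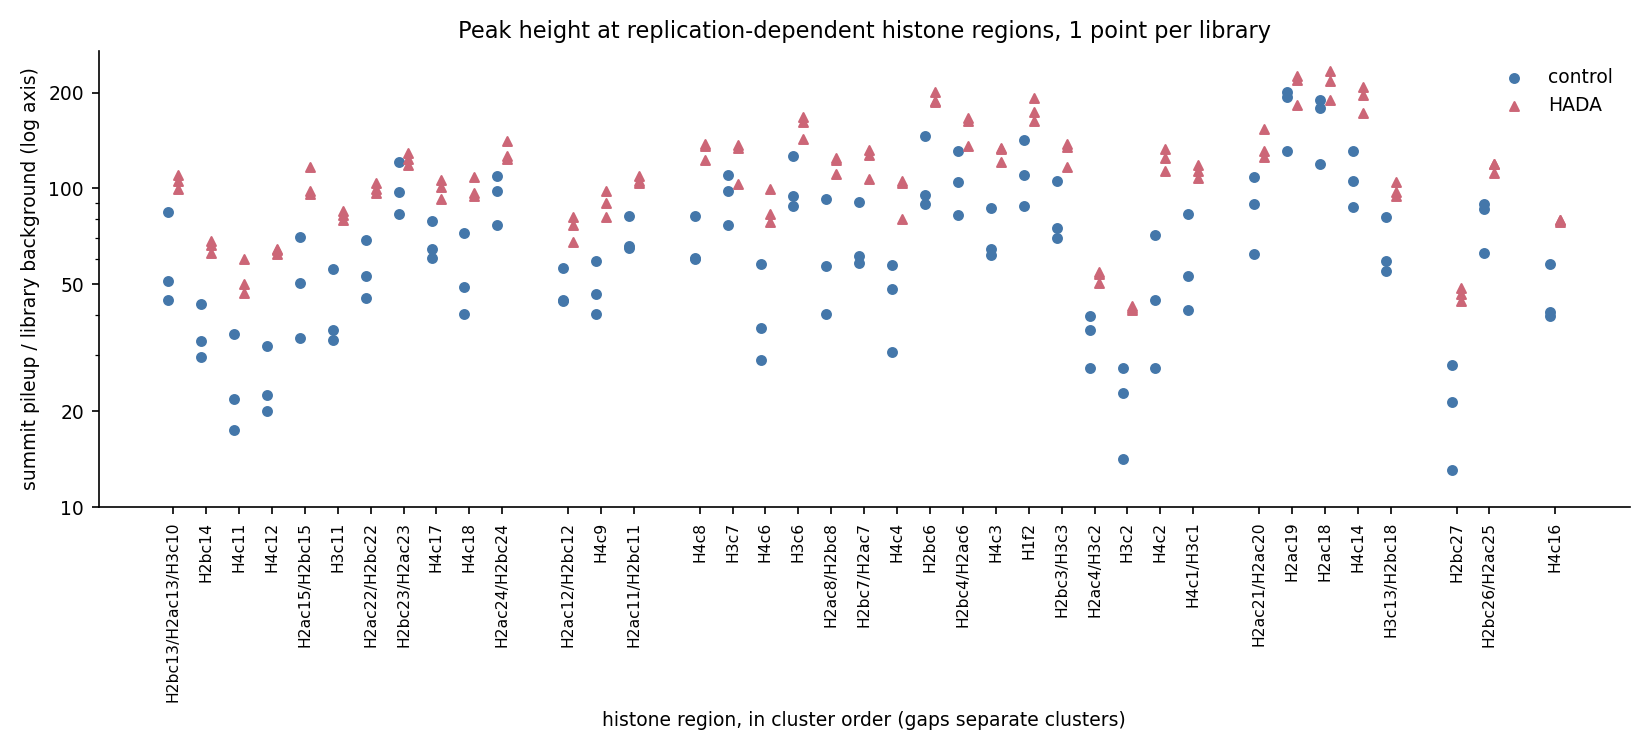
Summit pileup divided by library background (vertical log axis) at the 38 histone regions present in all 6 libraries, ordered by chromosome and position, with a gap between clusters. Circles are the 3 control libraries and triangles the 3 HADA libraries. The H4 regions on chromosome 13 show HADA above control, while H2ac19 and H2ac18 on chromosome 3 are the tallest in control libraries and their groups overlap.

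The H4 genes encode a highly conserved core histone, and the 2 largest differences among histone regions were at H4 genes. H4c12 had heights of 32.0, 19.96 and 22.4 in control libraries, against 62.4, 64.8 and 64.2 with HADA. Its HADA libraries were tightly grouped and all above the control libraries, with a log2 difference of 1.01 ± 0.17 (SE) and an adjusted p of 0.00927, the smallest among histone regions. The 50-base sequence at its summit occurs 3 times in the genome, so reads there may belong to other copies. H4c2 had heights of 71.7, 44.8 and 27.3 in control libraries, against 133, 125 and 113 with HADA. Control libraries varied widely there, and the log2 difference was 1.10 ± 0.26 (SE, adjusted p = 0.0166), the largest among histone regions. Its summit sequence is found once in the genome.

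H4c8 had heights of 81.7, 59.9 and 60.7 in control libraries, against 136, 138 and 123 with HADA (log2 difference 0.60 ± 0.15, SE, adjusted p = 0.0183). H4c6 had 58.0, 36.5 and 28.97 against 99.6, 83.4 and 78.7, a log2 difference of 0.76 ± 0.21 (SE, adjusted p = 0.0232). At H4c11 the heights were 34.9, 21.9 and 17.5 against 49.99, 60.3 and 47.1 (0.76 ± 0.21, SE, adjusted p = 0.0245). All 3 genes showed every HADA library above every control library. H4c4 (0.75 ± 0.22), H4c9 (0.52 ± 0.16), H4c3 (0.50 ± 0.15), H4c18 (0.56 ± 0.18) and the shared region of H4c1 and H3c1 (0.62 ± 0.20) also rose, with adjusted p-values from 0.0281 to 0.0415. Heights at H4c9, whose promoter is printed above, were 59.2, 46.7 and 40.4 in control libraries, against 90.2, 98.4 and 81.3 with HADA. The H4 regions that were not called were H4c14 on chromosome 3 (0.47 ± 0.16, SE, adjusted p = 0.05004), H4c16 on chromosome 6 (0.42 ± 0.16, adjusted p = 0.0651) and H4c17 (0.19 ± 0.15, adjusted p = 0.338). The summit sequences of H4c11, H4c17 and H4c18 each occur 2 times in the genome. Over all 38 regions, 28 had a summit sequence found once, of which 11 were called, and 10 had a repeated summit sequence, of which 5 were called. Of all shared regions 17.9% were called higher. In a fit limited to regions with a summit sequence found once, 7 of the 28 were called, beside 15.7% of all regions in that fit.

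Over the 13 regions with an H4 gene the groups did not overlap in 13, and the median log2 difference was 0.60. Over the other 25 histone regions 6 were called, a share near the 17.9% of all shared regions and 19.6% of protein-coding starts higher in HADA. The groups did not overlap in 18 of them, beside 29.4% and 37%, and the median was 0.28. The 2 sets were not tested against each other, and the H4 regions were lower in control libraries: their median height was 71.7, 46.7 and 41.0 in the control libraries, against 90.6, 62.3 and 65.0 for the regions without an H4 gene.

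H2A and H2B genes often sit head to head and share a promoter, as at H2ac8 and H2bc8. Of 11 regions with such a pair, 2 were called, a share near the 17.9% of all shared regions higher in HADA, and the median log2 difference was 0.27. H2ac15/H2bc15 had heights of 70.5, 50.6 and 33.9 in control libraries, against 97.8, 117 and 96.3 with HADA, with a log2 difference of 0.68 ± 0.22 (SE, adjusted p = 0.0398). H2ac22/H2bc22 had a difference of 0.49 ± 0.16 (adjusted p = 0.0453). Both pairs had all HADA libraries above the control libraries, but by the rank of the fold their differences were −0.18 and −0.031. The printed pair H2ac8/H2bc8 had 92.4, 57.0 and 40.4 against 125, 123 and 111 (0.62 ± 0.23, SE, adjusted p = 0.0594) and did not pass the test. Its difference was 0.35 without control 3 (adjusted p = 0.135) and 0.83 without control 1 (adjusted p = 0.0215), and with the limma trend its adjusted p was 0.0364. H2bc23/H2ac23 had the lowest difference on chromosome 13, −0.06 ± 0.16 (SE, adjusted p = 0.770), with heights of 121, 83.2 and 97.3 against 129, 124 and 118, and its groups overlapped after centring. The summit sequence of that region occurs 2 times in the genome. For H2bc23 and H2ac23, 0% of 50-base words in the gene body or upstream were found once in the genome. Reads there may therefore belong to other copies, and the difference cannot be assigned to this locus alone.

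H2A and H2B genes outside the H2A-H2B pairs are described by the region that the 1 kb rule gave them. H2bc27 on chromosome 11 had the lowest mean control height of the shared histone regions. Its heights were 27.8, 21.4 and 13.1 in control libraries, against 48.7, 46.7 and 44.4 in HADA libraries (log2 difference 0.85 ± 0.23, SE, adjusted p = 0.0219). Its neighbour, the H2bc26/H2ac25 pair, had 86.5, 62.8 and 89.6 against 119, 120 and 112 and was not called (0.19 ± 0.19, adjusted p = 0.427). H2bc14 rose by a log2 difference of 0.54 ± 0.16 (SE, adjusted p = 0.0278), from 43.2, 33.1 and 29.5 to 68.4, 66.3 and 62.9. On chromosome 3, H2ac19 had heights of 201, 131 and 194 in control libraries, against 219, 226 and 182 with HADA, a log2 difference of −0.11 ± 0.19 (SE, adjusted p = 0.680). H2ac18 had 190, 119 and 179 against 234, 217 and 189 (0.04 ± 0.19, adjusted p = 0.893). The regions at these H2A genes were the tallest histone regions over all 6 libraries, their groups overlapped, and the summit sequence of each occurs 2 times in the genome. The H2ac19 region also covers the start of H3c15, and the H2ac18 region that of H3c14. The annotated start of H2bc6 lies beside H1f4, far from its coding start, and the region there had heights of 146, 95.4 and 89.1 against 186, 200 and 188 (0.46 ± 0.17, SE, adjusted p = 0.0618). A region at the coding start of H2bc6, outside the 1 kb rule, had a difference of 0.21 ± 0.15 (SE, adjusted p = 0.285).

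A summit within 1 kb of the start in all 6 libraries was found for 6 of 12 H3 genes, beside 50.7% of all protein-coding genes. The share was larger in the H2A, H2B and H4 families and was 0 of 6 for H1, and families were not tested against each other. H3c11 had heights of 55.7, 36.0 and 33.3 in control libraries, against 79.9, 82.4 and 84.9 with HADA (log2 difference 0.64 ± 0.18, SE, adjusted p = 0.0240). H3c2 had 27.2, 22.9 and 14.2 against 42.3, 41.7 and 42.7 (0.65 ± 0.22, adjusted p = 0.0432). Both rose, and the summit sequence of each is present 7 times in the genome, so the gene of origin of these reads is uncertain. H3c8, without a peak in control 1, had 18.99 and 23.5 in the other control libraries and 44.0, 41.7 and 37.8 in HADA libraries, and was not part of the test. H3c7 (0.02 ± 0.20, adjusted p = 0.950) and H3c6 (0.24 ± 0.15, adjusted p = 0.228) did not pass. The region shared by H2ac4 and H3c2, among the 4 lowest shared histone regions by mean height over both groups, had 39.7, 27.3 and 36.1 against 54.7, 53.7 and 50.6 (0.26 ± 0.17, adjusted p = 0.239).

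No linker histone gene had a summit within 1 kb of its start in all libraries. For H1f2 and H1f4 this rests on the 1 kb limit, since their starts were inside a peak in all 6 libraries. The summits near H1f2, H1f4 and H1f5 lay at medians of 1039, 1065.5 and 1106.5 bp downstream of the start. The H1f2 region, counted because of control 3, had heights of 142, 88.1 and 110 in control libraries, against 192, 174 and 163 with HADA (log2 difference 0.28 ± 0.17, SE, adjusted p = 0.206). H1f5 lies in a region outside the 1 kb rule with heights of 45.6, 30.7 and 15.3 against 69.6, 65.3 and 66.4, and a log2 difference of 0.89 ± 0.31 (SE, adjusted p = 0.0478). H1f1 had a summit in HADA 2 alone, at a height of 53.2, and H1f3 had a nearest summit 1662 bp away. H1f6, H2ac1 and H2bc1 are the germline forms, used in the testis. Their nearest summits in any library were 2468, 16564 and 16870 bp from the start, and none of the 3 starts was inside a peak.

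**Figure D3:**
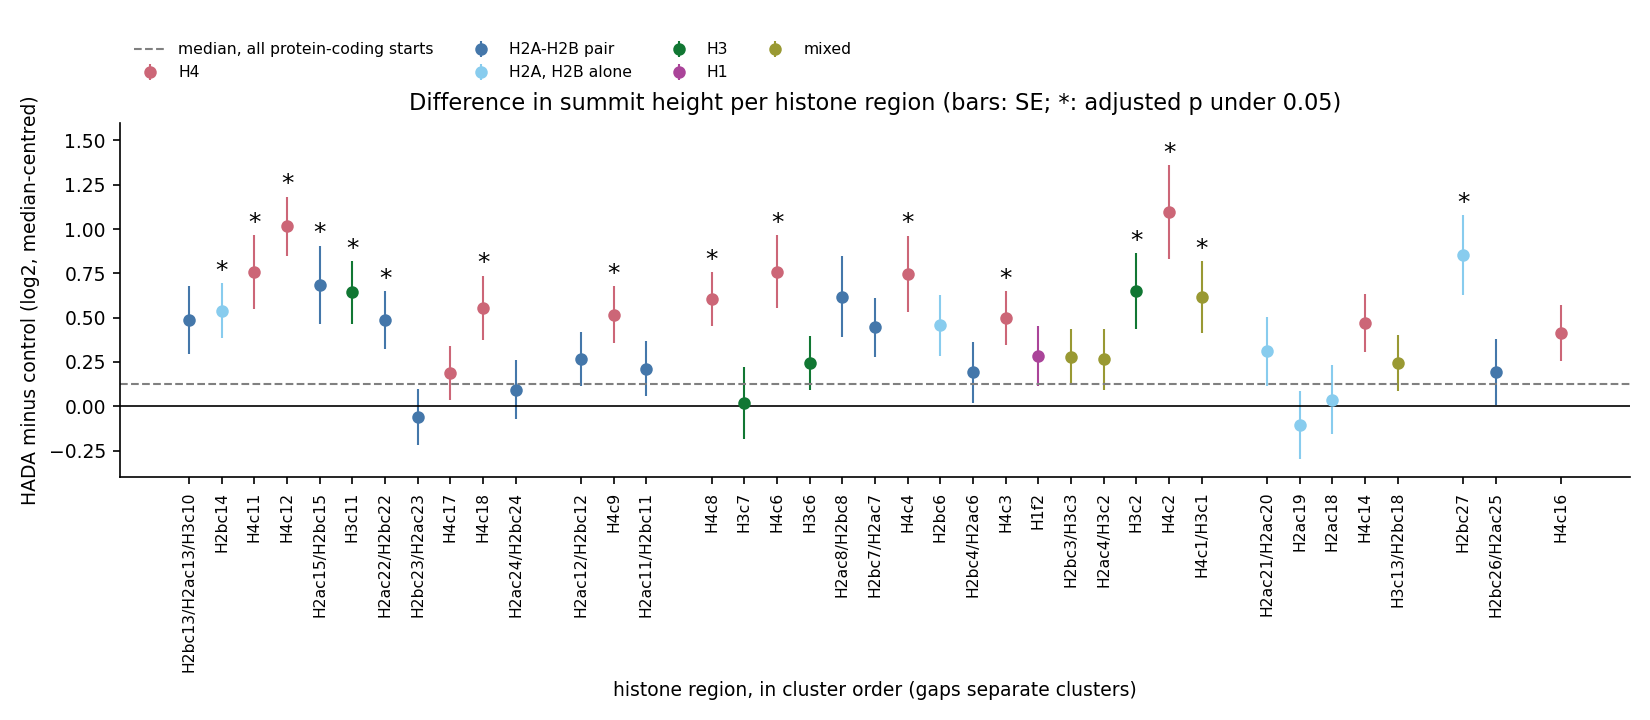
Difference in log2 summit pileup, HADA minus control after centring on the median shared region, for each of the 38 histone regions (points, with bars of 1 SE), coloured by gene family and ordered as in the clusters, where mixed marks regions of more than 1 family and the H2A-H2B pairs include the region that also holds H3c10. The dashed line is the median over all protein-coding start regions (0.12) and asterisks mark an adjusted p under 0.05. Of the 16 marked regions, 15 lie on chromosome 13 and 1 on chromosome 11.

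By cluster, 7 of 11 shared regions of the first chromosome 13 group were called, 1 of 3 of the second and 7 of 16 of the third, with median log2 differences of 0.54, 0.27 and 0.48. On chromosome 3, 0 of 5 were called at a median of 0.24, with 1 region at an unadjusted p under 0.05 and 3 regions where the groups did not overlap. Chromosome 11 had 1 of 2. Over all shared regions 17.9% were called higher and 29.4% did not overlap in that direction. The clusters were not tested against each other.

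The histone regions were also divided by mean height, and the sets were not tested against each other. Of the 19 tallest regions 2 were called, with a median log2 difference of 0.24, and of the 19 lowest 14 were called, with a median of 0.62, beside 17.9% of all shared regions and 19.6% of protein-coding starts called higher at any height. Across the 38 regions the Pearson correlation of mean height with the difference was −0.64 (Spearman −0.68), and across the 10849 regions at protein-coding starts it was −0.19 (Spearman −0.31). These describe regions of the same 6 libraries, in which height enters both measures.

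**Figure D4:**
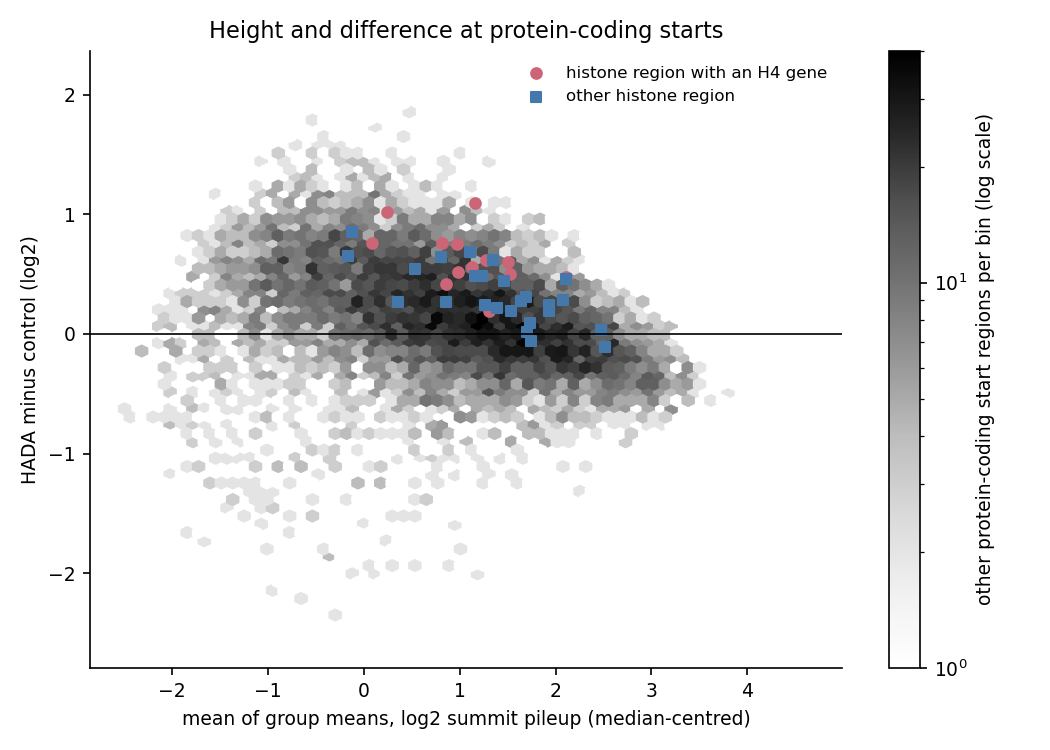
Mean log2 summit pileup of both groups after centring (horizontal axis) against the HADA minus control difference in log2 (vertical axis) at shared regions of protein-coding starts. Grey bins count the other starts, circles are the 13 histone regions with an H4 gene and squares the other 25. The histone points fall from left to right and 36 of 38 lie above 0.

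The local background around histone peaks, which is not independent of the summits, moved with them. Divided by the library background, its median over histone regions was 10.96, 7.74 and 7.27 in control libraries, against 14.2, 14.9 and 13.3 with HADA. Each HADA library exceeded each control library at all 38 regions. The same separation held for 45.7% of all shared regions and 59.8% of regions at protein-coding starts, and the opposite one for 13.6% and 4.35%. The median log2 difference in local background was 0.87 over histone regions, 0.44 over protein-coding starts and 0.27 over all shared regions. These values were not centred, and on this scale the median shared summit itself was higher in HADA by 0.34 (log2). On it, 23 histone regions were higher and 0 lower, and 31.0% of all shared regions were higher against 18.3% lower.

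The authors' fold enrichment, compared as a rank within each library, gave 2 histone regions higher (H4c18 and H4c2) and 0 lower, while 3 were higher at an unadjusted p under 0.05, beside 20.2% of all shared regions. The background was 6.57% of all shared regions and 6.42% of protein-coding starts higher, and 4.78% and 1.1% lower. The median rank difference over histone regions was −0.019 in normal scores, beside 0.057 over all shared regions and 0.126 over regions at protein-coding starts. It was positive at 17 of 38 histone regions. Summit and local background were both higher in HADA, and their ratio changed little at the median region. The local background is taken within the same library and rises inside a dense cluster of open promoters. Its rise is therefore not a second observation independent of the summits, and neither is the small change in the ratio. Counted per gene by the tallest summit near its start, 9 of 51 histone genes were higher and 0 lower, beside 13% and 16.1% of the 11024 genes tested, with a median log2 difference of 0.27 against −0.04.

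**Figure D5:**
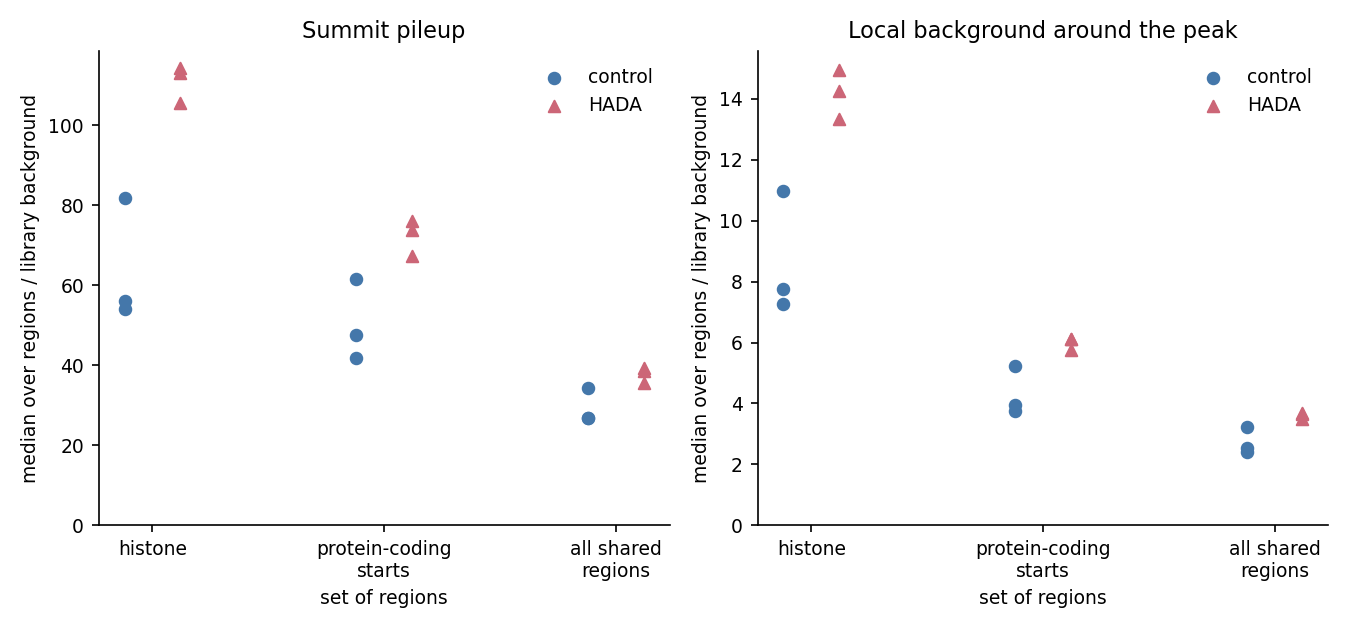
Median over regions of the summit pileup (left) and of the local background (right), each divided by the library background (vertical axes, from 0), for histone regions, regions at protein-coding starts and all shared regions. Circles are control and triangles HADA libraries. In both panels the 3 HADA libraries lie above the 3 control libraries in each of the sets, for the summit from 105.5 to 114.3 against 54.1 to 81.7 at histone regions, 67.3 to 76.1 against 41.9 to 61.6 at protein-coding starts and 35.6 to 39.3 against 26.8 to 34.4 over all shared regions.

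Accessibility at markers of blood cell types moved with the groups in the same per-gene test. All 3 tested B cell markers of 6 listed (Cd79b, Pax5 and Ms4a1) rose, at a median log2 difference of 1.83, and the summed height of the listed markers was 20.8 to 152.8 in control libraries, against 375.1 to 442.4 with HADA. All 4 tested neutrophil markers of 6 (Csf3r, Cxcr2, S100a8 and Mmp9) fell, at a median of −1.79, with sums of 138.3 to 343.8 and 47.5 to 90.2. Among monocyte markers, Csf1r and Cx3cr1 fell (log2 differences −1.05 ± 0.20 and −1.26 ± 0.12, SE) and Ly6c2 rose (0.60 ± 0.12, SE). Among 5 tested T cell markers of 6, 0 passed (median 0.33, sums of 205.0 to 276.6 and 307.4 to 361.9), and the same was true of 2 tested NK cell markers of 5 (sums of 23.5 to 42.6 and 47.9 to 58.5, Ncr1 and Klrb1c without a peak). Of the leukocyte markers Ptprc, Coro1a and Laptm5, which were open in all libraries, Laptm5 fell (sums of 300.9 to 488.1 and 389.2 to 476.0). The 5 erythroid markers could not be tested: Klf1, Alas2 and Epb42 had no peak in any library, and the sum was 0 to 7.79 in control libraries, against 14.95 to 24.4 with HADA. Of 3 platelet markers Pf4 and Ppbp had no peak, and Itga2b was not called (sums of 9.29 to 14.2 and 18.9 to 22.6). Among the control libraries, control 3 had the lowest B cell sum (20.8), the highest neutrophil sum (343.8) and the lowest median centred height over histone regions (1.01 in log2, against 1.25 in control 1 and 1.06 in control 2). The part of the cell mixture in the histone differences was not tested.

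Other genes of histone supply were read by the same per-gene fit, in which 13% of all genes were higher and 16.1% lower. The lists hold few genes, no test of a list was made, and nothing is read about a list from its count. Of 15 genes for transcription and 3′ processing of histone messages, among them Npat, Casp8ap2 and Slbp, Cstf2, a cleavage factor subunit, rose and Zfp473, a factor of the processing complex, fell (median log2 difference −0.21). Of 10 tested histone chaperone genes out of 11, Nap1l1 rose and Rbbp4 and Nap1l4 fell (median 0.14). Of 9 tested replication-independent histone genes, 0 rose, and H1f0 (−0.49 ± 0.11, SE) and H3f3b (−0.61 ± 0.17, SE) fell, at adjusted p-values of 0.0234 and 0.0366. Of 19 tested S phase genes out of 20, Mcm2, Mcm3 and Mcm6, subunits of the replicative helicase, and the cell cycle factor E2f2 rose, while Mcm4 and Mki67 fell (median 0.14). E2f2 had the largest of these differences, 0.78 ± 0.12 (SE, adjusted p = 0.00962).

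Peaks in and around the clusters that the 1 kb rule did not take in gave a comparison within the same neighbourhoods, and they include the regions at H1f5 and at the coding start of H2bc6. Within the clusters and 20 kb around them, 19 such regions were shared by all libraries, of which 4 were higher and 1 lower, beside 17.9% and 24.1% of all shared regions, with a median log2 difference of 0.21. One of the higher regions was at H1f5 and another at Hfe, the iron regulator gene inside the third chromosome 13 group (0.53, adjusted p = 0.0382). The lower region lay within 3 kb downstream of H2bc18 on chromosome 3, with heights of 70.5, 109.5 and 60.1 in control libraries, against 49.6, 48.2 and 51.4 with HADA (−1.02 ± 0.27, SE, adjusted p = 0.0223). This choice of neighbours was made after the values of the histone regions were seen.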

How the data were processed

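ATAC-seq peak lists of 3 control and 3 HADA libraries were used, grouped and numbered by their labels. Labels name them only as separate samples, so p-values measure the spread between these libraries. Per the labels and the study's methods, the authors checked reads with FastQC, trimmed them with Trimmomatic, aligned them to GRCm39 with Bowtie2, took out duplicates by Picard and called peaks per library with MACS2, with versions and options not given in the sources used here. The deposited lists give each peak's fold enrichment (a ratio of summit to local background), its −log10 p-value and −log10 q-value, and a score. All were made within a library by the authors. A shift of reads for the Tn5 cut was not given, and reads of repeated histone sequence may be placed on any copy. Total reads were not analysed here.

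The deposited fold and −log10 p-value of a peak together give its whole-number summit pileup and its local background, which were solved for 100% of peaks. Peaks sharing 1 bp were merged into regions. A region belonged to a gene when a summit lay within 1 kb (1000 bp) of an annotated start. Log2 summit pileups of regions in all 6 libraries were centred on the library median and compared with limma 3.58.1 in R 4.3.3 (two-sided, Benjamini-Hochberg over all regions, limit 0.05), as tested on simulated data. Exact copies in the genome were counted for the 50-base sequence around every summit. Python 3.11.15, numpy 2.4.6 and pandas 2.3.3 were used. With 3 against 3 libraries an exact permutation test of a single value cannot go below 0.1, so separation of groups is stated instead. The genes, gene lists and markers were chosen with earlier results of these data known. Named regions were the 12 called with the smallest adjusted p-values, the extremes of each cluster, the 4 tallest and 4 lowest, all H1 genes, the germline genes and those without a peak. H2ac8/H2bc8, H2ac22/H2bc22, H4c18, H4c1/H3c1, H4c16, H4c17, H3c6, H3c7 and the regions outside the rule were added after their values were seen. Alternatives changed the scaling, rank, filters, overlap, window, unit, block and libraries. A monocyte marker, and the counts and sums of that list, are not reported here.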

Additional observations from a re-analysis of the deposited data

How the results depend on the processing

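Of the alternatives run, the number of histone regions lower in HADA was 0 in each. The number higher, 16 as reported, moved to 2 by the rank of the fold (5.26%, beside 6.57% of all regions in that fit), 3 when centred on regions at protein-coding starts (7.89% beside 9.79%), 7 of 28 regions whose summit sequence is found once (25% beside 15.7%), 9 of 51 with 1 value per gene (17.6% beside 13%), and 8 after cyclic loess (21.1% beside 16.2%), the last chosen after seeing the data. It stayed within 1.5 times for the pileup over background without centring (23), a −log10 q of at least 5, the limma trend, an overlap of 100 bp, a window of 500 bp and quantile normalization (also chosen after seeing the data). Leaving out 1 library each gave 1 to 19 regions, with 1 without HADA 1, 1 without HADA 2, 2 without HADA 3 and 9 without control 3 (2.63%, 2.63%, 5.26% and 24.3%, beside 7.58%, 2.99%, 6.86% and 17.6%). Fewer samples remain in these fits. The median difference, 0.46, was −0.019 by rank, 0.84 over background without centring, 0.30 centred on protein-coding starts and 0.27 per gene, and 0.36 to 0.54 when a library was left out. Histone genes with a peak in all libraries numbered 45 to 51 under the other settings and 51 to 52 without a library. By rank, 4 called regions reversed, H2ac15/H2bc15 (−0.18), H4c1/H3c1 (−0.16), H2ac22/H2bc22 (−0.031) and H4c6 (−0.015), and the cause was not tested. With the replicate number as a block, 6 regions were higher (15.8% beside 12.5% of all regions). Same-numbered libraries correlated at −0.08, 0.08 and −0.38, and no library correlated best with the one of its own number. With so few libraries these values cannot show whether the numbers mark a pairing. Relative counting error is largest at the lowest regions, such as H2bc27 in the control libraries.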
